A study of Mus musculus with 7 samples.

Results

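Interferon-stimulated genes were followed across 7 Affymetrix arrays of mouse embryonic fibroblasts (MEFs). The members were 40 interferon-response genes listed by name, with no threshold on their values. Of these, 32 had a probe set annotated to that gene alone, 47 probe sets in all among the 22690 on the array. A feature was analysed further if its signal exceeded 45.6, the pooled median, on at least 1 array. This filter left 25 listed genes among 9390 features.

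The series asks what DNA methylation contributes to keeping genes silent. Every cell population lacked the tumour suppressor p53 (p53-/-), so no array shows cells with p53. One genotype, called p53-null here, was p53-/- only. The other, called p53-Dnmt1-null, was p53-/- Dnmt1-/- and so also lacked Dnmt1, the DNA methyltransferase that copies methylation onto newly made DNA. Both genotypes were profiled untreated (0 h) and after 24 h and 48 h with trichostatin A (TSA), an inhibitor of histone deacetylases. A further array holds p53-Dnmt1-null cells 2 weeks after TSA had been removed. Each group was 1 array. The dose of TSA, the length of exposure before removal, and whether either population was clonal or pooled were absent from the sources used here.

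Interferons are secreted proteins that cells release after sensing foreign or misplaced nucleic acid. They bind receptors that signal through Janus kinases to transcription factors, Stat2 and Irf9 among them, that bind the interferon-stimulated response element in the promoters of their target genes. The products of these genes recognise viral RNA, block virus entry, translation or release, attack vacuoles that hold intracellular pathogens, or adjust the strength of the response itself, and resting fibroblasts carry low levels of many of them.

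Of the 6 listed genes that in p53-Dnmt1-null cells were at least 2-fold above untreated at 24 h and at 48 h of TSA, the 3 whose RefSeq promoters (build GRCm38.p6, 250 bases before to 50 after the start) held the core of this element are printed to show it. Capitals mark 2 copies of GAAA separated by any 2 bases, searched on both strands. All are given 5′ to 3′ on the gene's own strand.
Bst2: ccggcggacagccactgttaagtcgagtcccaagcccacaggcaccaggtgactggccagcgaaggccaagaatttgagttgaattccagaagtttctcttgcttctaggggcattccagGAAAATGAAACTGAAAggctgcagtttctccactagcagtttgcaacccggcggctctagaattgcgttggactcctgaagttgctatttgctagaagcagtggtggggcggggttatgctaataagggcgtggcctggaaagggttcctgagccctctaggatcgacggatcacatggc
Oas1a: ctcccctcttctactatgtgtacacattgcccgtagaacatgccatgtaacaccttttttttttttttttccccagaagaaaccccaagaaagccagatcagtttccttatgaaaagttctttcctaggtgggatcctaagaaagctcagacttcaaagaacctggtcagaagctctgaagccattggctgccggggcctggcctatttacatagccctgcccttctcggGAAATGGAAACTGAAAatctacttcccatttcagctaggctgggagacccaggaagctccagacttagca
Igtp: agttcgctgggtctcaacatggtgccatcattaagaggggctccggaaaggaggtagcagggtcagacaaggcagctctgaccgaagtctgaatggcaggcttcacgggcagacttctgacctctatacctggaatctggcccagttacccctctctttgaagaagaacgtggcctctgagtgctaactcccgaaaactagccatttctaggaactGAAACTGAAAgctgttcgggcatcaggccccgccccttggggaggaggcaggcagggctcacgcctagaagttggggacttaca
The Bst2 promoter lies at chr8:71537423-71537722 on the minus strand, and its 2 overlapping matches begin 130 and 124 bases upstream of the start. The Oas1a promoter lies at chr5:120907476-120907775 on the minus strand, with 2 overlapping matches beginning 20 and 14 bases upstream. The Igtp promoter lies at chr11:58199306-58199605 on the plus strand, with 1 match beginning 34 bases upstream. Neither of the 2 promoter windows of Ifit2 on chromosome 19 held the core, and Usp18 and Rtp4 had no entry.

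Of the 40 listed genes, 32 had a promoter entry and 17 of those (53.1%) held the core at least once, against 1079 of 27025 genes with an entry (3.99%). Among the measured members it was found in Bst2, Gbp2, Ifih1, Ifit1, Ifit3, Igtp, Irgm1, Oas1a, Rsad2 and Stat2. The remaining promoters with the core were those of Ddx58, Gbp3, Ifi203, Irf2, Isg15, Oas1g and Tgtp1. The listed promoters held a median of 7 CpG dinucleotides, the bases that Dnmt1 keeps methylated, against 8 over all genes. Among the listed genes the number ran from 1 to 43. A match describes the letters only and is not evidence of binding.

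The values are linear signals in arbitrary units, already scaled by the authors to the same trimmed mean on every array. Median signals lay between 41.9 on the array after TSA removal and 48.8 on the p53-null array at 48 h. Dnmt1 itself was lower in the p53-Dnmt1-null cells, with signals of 206.5, 74.0, 109.5 and 123.2 at 0 h, 24 h, 48 h and after removal, against 695.6, 384.4 and 308.2 at 0 h, 24 h and 48 h in p53-null cells. Fibroblast markers (collagens, Vim, Thy1 and others) exceeded the pooled median on every array for 12 of 13 genes. Their summed signal was 34908.5 to 39943.9 in p53-null cells, 15027 to 18608.8 in p53-Dnmt1-null cells and 10699.1 after removal. In the genotype test described below 10 of these 13 passed as lower and 1, Dcn, as higher, where 19.4% of all features passed in each direction. Of 15 macrophage and dendritic cell markers 4 exceeded the pooled median on any array and 0 on every array, and the signal of Ptprc, which encodes the CD45 antigen of blood cells, never exceeded 11.9. Their summed signal was 279.5 to 340.2 in p53-null cells, 477.5 to 544 in p53-Dnmt1-null cells and 292.7 after removal. The sum of 14 lymphocyte and NK cell markers was 96 to 129.7, 174.4 to 184.6 and 82.5 in the same order, and of these Cd3e alone exceeded the pooled median on any array. Of the macrophage, dendritic cell, lymphocyte and NK cell markers, Csf1r, Cd68 and Cd3e passed as higher in the genotype test. Csf1r read 43.7 to 53.6 in p53-null cells against 120.1 to 161.8 in p53-Dnmt1-null cells (limma adjusted p = 0.000973). Cd68 differed by 1.02 (limma adjusted p = 0.0271) and Cd3e by 1.21 (limma adjusted p = 0.0445). These sums differ between the groups in which the members are compared, and their part in the results was not tested. In bulk RNA, fewer cells of a type and less RNA per cell cannot be told apart.

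Fold changes are differences of log2(signal + 11.4), where 11.4 is the pooled 25th percentile. The offset understates the change of dim genes. Signals of different genes are not compared with each other, because each probe set has its own response. The grid of signals shows every measured member on every array.

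**Figure D1:**
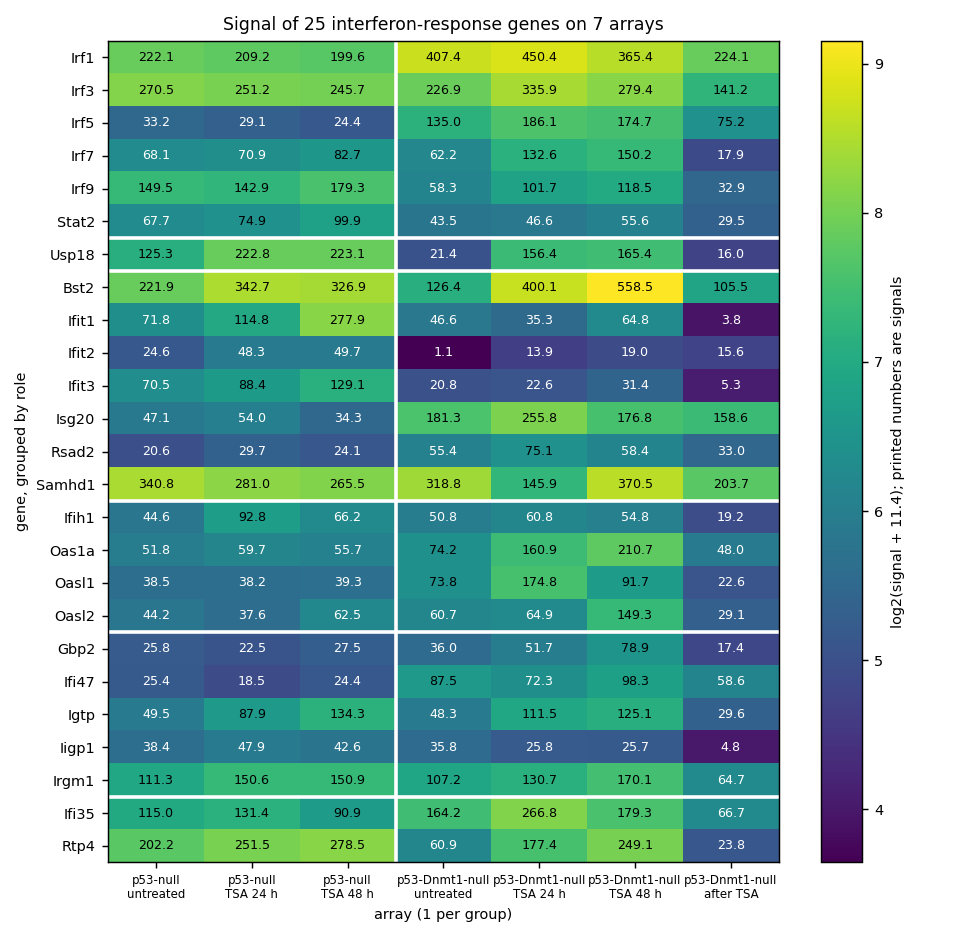
Signal of the 25 measured members (vertical axis, grouped by role) on the 7 arrays (horizontal axis, 1 array per group). Printed numbers are deposited signals and colour is log2(signal + 11.4); the column 2 weeks after TSA removal is the lowest of the 7 for 18 of the 25 genes, from Ifit1 at 3.8 to Irf3 at 141.2.

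Loss of Dnmt1 went with higher signals of some interferon-response genes and lower signals of others, at matched times. Irf5, Isg20 and Ifi47 were among the members that were higher in p53-Dnmt1-null cells, whereas Ifit1, Ifit2 and Ifit3, which encode RNA-binding antiviral proteins, were lower. The genotypes were compared by limma over the 6 arrays at 0 h, 24 h and 48 h, with additive terms for genotype and for time and Benjamini-Hochberg adjustment over all 9390 features at 0.05. Of the 25 measured members 10 (40%) passed as higher, where 19.4% of all features did, and 6 (24%) as lower, where 19.4% did. With a difference of at least 2-fold as well, 6 (24%) were higher against 8.97% of features and 3 (12%) lower against 10.1%. The 3 p53-Dnmt1-null arrays all lay above the 3 p53-null arrays for 9 members (36%) against 23% of features, and all below for 6 members (24%) against 21.9%. By each of these counts the share of members on the lower side was near that of all features. The median difference of the 25 was 0.07 on the log2 scale, and that of all features was 0.04. Of those called higher, Gbp2, Ifi47, Irf5, Oasl1 and Rsad2 passed the filter through p53-Dnmt1-null arrays only, and of those called lower, Ifit2 and Ifit3 passed through p53-null arrays only, so these had to differ to be measured. The same held for Iigp1, which lay all below without being called and passed through 1 p53-null array only. All differences below are p53-Dnmt1-null minus p53-null, with the standard error from 3 arrays per genotype.

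Among the transcription factors, Irf5, which acts downstream of Toll-like receptors, gave 33.2, 29.1 and 24.4 at 0 h, 24 h and 48 h in p53-null cells, against 135.0, 186.1 and 174.7 in p53-Dnmt1-null cells. The genotypes did not overlap, and the array after removal, at 75.2, stayed above every p53-null array. The difference was 2.13 ± 0.21 (SE, limma adjusted p = 0.00015). A second Irf5 probe set read 41.2, 52.0 and 35.5 against 70.8, 54.2 and 70.7, and 32.6 after removal, below every p53-null array. Its mean difference of 0.50 had the same direction but did not pass when that probe set stood for the gene (limma adjusted p = 0.112).

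Irf1, an activator of interferon-gamma target genes, read 199.6 to 222.1 in p53-null cells and 365.4 to 450.4 in p53-Dnmt1-null cells. Its difference was 0.92 ± 0.17 (limma adjusted p = 0.00357). Irf9 and Stat2, which act together at the response element, went the other way. Irf9 read 142.9 to 179.3 against 58.3 to 118.5 and differed by -0.74 ± 0.21 (limma adjusted p = 0.0234). Stat2 read 67.7 to 99.9 against 43.5 to 55.6 and differed by -0.61 ± 0.20 (limma adjusted p = 0.0385), with its second probe set also lower by a mean of -1.35. Neither Irf7, which drives interferon-alpha genes (0.49 ± 0.23, limma adjusted p = 0.126), nor Irf3, which is activated by nucleic acid sensors (0.11 ± 0.19, limma adjusted p = 0.664), passed. Irf3 had 4 probe sets: 3 had mean differences of 0.11, 0.12 and 0.26, and the dimmest, with no signal above 13.4, had -0.34.

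In the ISG15 system, Usp18 removes the ubiquitin-like Isg15 from proteins and restrains the type I receptor. Its signals were 125.3, 222.8 and 223.1 at 0 h, 24 h and 48 h in p53-null cells, against 21.4, 156.4 and 165.4 in p53-Dnmt1-null cells. The untreated p53-Dnmt1-null array stood far below the rest, and at 24 h and 48 h those cells read above the untreated p53-null array but below its TSA arrays. The genotype difference was -0.98 ± 0.31 (limma adjusted p = 0.0378), made up of -2.06 untreated, -0.48 at 24 h and -0.41 at 48 h.

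The antiviral effectors divided in direction. Isg20, an exonuclease that degrades RNA, read 47.1, 54.0 and 34.3 in p53-null cells, against 181.3, 255.8 and 176.8 in p53-Dnmt1-null cells. No arrays overlapped, and the level after removal was 158.6. The difference was 1.93 ± 0.18 (limma adjusted p = 0.000115).

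Rsad2 encodes viperin, which makes a chain-terminating nucleotide. It read 20.6, 29.7 and 24.1 against 55.4, 75.1 and 58.4, without overlap, and differed by 1.04 ± 0.23 (limma adjusted p = 0.00772). Its other probe sets had mean differences of 0.46 and 1.01.

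The 3 measured Ifit genes had lower signals without Dnmt1. Ifit1, whose product binds viral RNA that lacks the host cap structure, read 71.8, 114.8 and 277.9 in p53-null cells, against 46.6, 35.3 and 64.8 in p53-Dnmt1-null cells. Every p53-Dnmt1-null array lay below every p53-null array, by a margin that was narrowest between the p53-null untreated array and the p53-Dnmt1-null array at 48 h. The difference was -1.29 ± 0.27 (limma adjusted p = 0.00639).

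Ifit3, a partner of Ifit1, read 70.5, 88.4 and 129.1 against 20.8, 22.6 and 31.4. The highest p53-Dnmt1-null array was under the lowest p53-null array, and the difference was -1.54 ± 0.21 (limma adjusted p = 0.000913). Ifit2 read 24.6, 48.3 and 49.7 against 1.1, 13.9 and 19.0. It also did not overlap and differed by -1.26 ± 0.30 (limma adjusted p = 0.0115), but none of its p53-Dnmt1-null signals reached the pooled median.

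Bst2, which tethers budding virions to the cell surface, did not pass between genotypes (0.07 ± 0.27, limma adjusted p = 0.857), with differences of -0.76 untreated, 0.22 at 24 h and 0.75 at 48 h. The probe sets of Samhd1, which depletes nucleotides needed for reverse transcription, did not share a direction. The one of highest mean read 340.8, 281.0 and 265.5 against 318.8, 145.9 and 370.5, a difference of -0.17 ± 0.25 (limma adjusted p = 0.613), and 203.7 after removal. The others read 141.7, 147.9 and 116 against 145.3, 142.6 and 140.5 (181.3 after removal), then 7.5, 54.5 and 68.3 against 16, 38.6 and 5 (19.5 after), and 63.5, 62.7 and 27.4 against 111.2, 31 and 68.2 (79.1 after). Their genotypes overlapped in every case, and no direction is given for the gene.

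The 3 measured members of the oligoadenylate synthetase family passed as higher in p53-Dnmt1-null cells. Oas1b, a measured family gene outside the members, did not pass (0.97 ± 0.34, limma adjusted p = 0.0504). Its genotypes overlapped, as the p53-Dnmt1-null signal of 15.3 at 24 h lay under the p53-null signal of 18 at 48 h. Oas1a, which on binding double-stranded RNA makes the second messenger of RNase L, read 51.8, 59.7 and 55.7 in p53-null cells, against 74.2, 160.9 and 210.7 in p53-Dnmt1-null cells. The genotypes did not overlap, and they were nearest each other untreated. The difference was 1.15 ± 0.26 (limma adjusted p = 0.00866).

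Oasl1, a family member that restrains the translation of Irf7 RNA, read 38.5, 38.2 and 39.3 against 73.8, 174.8 and 91.7. Its p53-null arrays were almost level and all lay under the p53-Dnmt1-null arrays, with a difference of 1.23 ± 0.26 (limma adjusted p = 0.00597). Oasl2 read 37.6 to 62.5 against 60.7 to 149.3, which overlapped, and differed by 0.71 ± 0.22 (limma adjusted p = 0.0337). Ifih1, a sensor of long double-stranded RNA, did not pass (-0.20 ± 0.22, limma adjusted p = 0.491).

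The interferon-inducible GTPases act at vacuoles that hold intracellular pathogens. Ifi47 read 25.4, 18.5 and 24.4 in p53-null cells, against 87.5, 72.3 and 98.3 in p53-Dnmt1-null cells. It read 58.6 after removal. All 4 p53-Dnmt1-null arrays were above the p53-null arrays, and the difference was 1.51 ± 0.22 (limma adjusted p = 0.00104). Gbp2 read 22.5 to 27.5 against 36.0 to 78.9 and differed by 0.82 ± 0.26 (limma adjusted p = 0.0383), with a second probe set higher by a mean of 1.30.

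Igtp (0.06 ± 0.19, limma adjusted p = 0.816), Irgm1 (-0.03 ± 0.18, limma adjusted p = 0.920) and Iigp1 (-0.43 ± 0.25, limma adjusted p = 0.209) did not pass. Among the remaining members, Ifi35, a partner of the signalling protein Nmi, read 115.0, 131.4 and 90.9 in p53-null cells against 164.2, 266.8 and 179.3 in p53-Dnmt1-null cells, without overlap, and differed by 0.78 ± 0.19 (limma adjusted p = 0.0117). Rtp4, a chaperone of G protein-coupled receptors, read 202.2, 251.5 and 278.5 against 60.9, 177.4 and 249.1, which overlapped, and its difference of -0.73 ± 0.27 did not pass (limma adjusted p = 0.0606). It was -1.56 untreated, -0.48 at 24 h and -0.15 at 48 h. Without the 0 h pair of arrays 3 members in place of 6 passed as lower, as Irf9, Stat2 and Usp18 lost their calls, and without the 24 h pair Gbp2 and Stat2 lost theirs. Over all features 18.2% still passed as lower without the 0 h pair. Without the 48 h pair 6 in place of 10 passed as higher, while over all features the share fell too, to 11.8% higher and 12.1% lower, and the calls of Gbp2, Ifi35, Oas1a, Oasl2, Ifit2, Irf9 and Stat2 were lost. Irf7 passed as higher without the 0 h pair, and Rtp4 as lower without the 24 h or the 48 h pair.

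**Figure D2:**
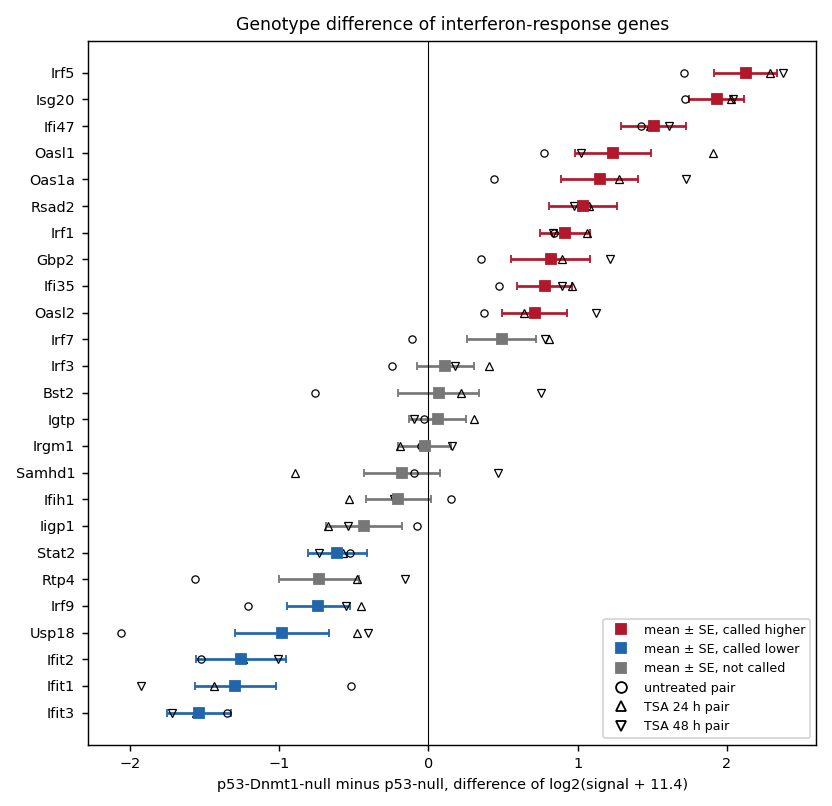
Genotype difference of each measured member (horizontal axis, p53-Dnmt1-null minus p53-null, difference of log2(signal + 11.4)); squares are limma estimates with standard errors over 3 arrays per genotype and open symbols the matched pairs at 0 h, 24 h and 48 h. The 10 members called higher lie between 0.71 and 2.13 and the 6 called lower between -1.54 and -0.61, and for Usp18 and Rtp4 the untreated pair stands apart at -2.06 and -1.56.

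TSA went with higher signals of a group of interferon-response genes in p53-Dnmt1-null cells, among them Usp18, Bst2, Rtp4, Oas1a, Igtp and Ifit2. With 1 array per time, a TSA difference was described by size: 24 h and 48 h arrays both at least 2-fold from untreated, on the same side. In p53-Dnmt1-null cells these 6 of the 25 members were higher by this rule, against 1.87% of all features, and 0 were lower against 0.341%. In p53-null cells 0 members were higher against 1.54% of features and 0 lower against 1%. Signals were above untreated at both times for 19 members in p53-Dnmt1-null cells, against 33.5% of features, and for 14 in p53-null cells, against 38.6%. The median TSA difference of the members was 0.41 in p53-Dnmt1-null cells, where that of all features was -0.02, and 0.15 in p53-null cells, where it was 0.02. The comparisons of a genotype share its untreated array, so a low or high value there moves both times together.

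By limma, fitted to the 7 arrays with the TSA times of each genotype taken as one group, none of the members passed at an adjusted p of 0.05. When each gene was represented by its probe set of lowest mean, 1 member did, Usp18 in p53-Dnmt1-null cells (limma adjusted p = 0.04997, with 4 of 7691 features called), although its own probe set and difference were the same. Over the other alternatives the lowest limma adjusted p of a member for TSA in p53-Dnmt1-null cells ran from 0.0879 to 0.43. For TSA averaged over genotypes it ran from 0.0588, with the probe set of lowest mean, to 0.366, without a filter. Over all features the test called 0% in p53-null cells and 0% in p53-Dnmt1-null cells. At an unadjusted p under 0.05 it held 799 features with Igtp and Usp18 among them in p53-null cells, and 736 features with 8 members, the 6 above with Irf7 and Irf9, in p53-Dnmt1-null cells. Averaged over genotypes, 0.0213% of features passed as higher and 0% as lower, with no member among them. The test of the difference between genotypes called 0% of features. At an unadjusted p under 0.05 it held 291 features with Bst2, Oas1a, Rtp4 and Usp18 among them, and the limma adjusted p of each was 0.994. A larger TSA difference in one genotype than in the other was therefore not shown for any member.

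Usp18 had the largest TSA difference of the members in p53-Dnmt1-null cells. From the signals given above, it was 2.35 at 24 h and 2.43 at 48 h, and 0.78 at both times in p53-null cells. Pooled over the times it was 2.39 ± 0.28 (SE, limma adjusted p = 0.0836), and averaged over genotypes 1.59 ± 0.20 (limma adjusted p = 0.0852). The difference between genotypes was 1.62 ± 0.40, with an unadjusted p of 0.00404 (limma) beside the adjusted value already given.

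Bst2 read 221.9, 342.7 and 326.9 at 0 h, 24 h and 48 h in p53-null cells, against 126.4, 400.1 and 558.5 in p53-Dnmt1-null cells. Both genotypes were lowest untreated, and the highest signals were those of p53-Dnmt1-null cells with TSA. The TSA difference was 1.58 at 24 h and 2.05 at 48 h in p53-Dnmt1-null cells (pooled 1.81 ± 0.32, limma adjusted p = 0.300) and 0.60 and 0.54 in p53-null cells.

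Rtp4 was higher by 1.38 and 1.85 in p53-Dnmt1-null cells (pooled 1.62 ± 0.32, limma adjusted p = 0.367) and by 0.30 and 0.44 in p53-null cells. Its p53-Dnmt1-null signals came up from well under the p53-null level to about that level at 48 h. Oas1a was higher by 1.01 and 1.38 in p53-Dnmt1-null cells (pooled 1.19 ± 0.31, limma adjusted p = 0.482) and by 0.17 and 0.09 in p53-null cells, where its signals hardly moved.

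Igtp read 49.5, 87.9 and 134.3 in p53-null cells, against 48.3, 111.5 and 125.1 in p53-Dnmt1-null cells. The genotypes were close at each time, with both TSA arrays above untreated. Its TSA differences were 1.04 and 1.19 in p53-Dnmt1-null cells (pooled 1.12 ± 0.34, limma adjusted p = 0.538) and 0.71 and 1.26 in p53-null cells, where the 24 h array was short of 2-fold. Ifit2 was higher by 1.02 and 1.28 in p53-Dnmt1-null cells (pooled 1.15 ± 0.43, limma adjusted p = 0.620) and by 0.73 and 0.76 in p53-null cells. Its p53-Dnmt1-null signals were 1.1, 13.9 and 19.0 at 0 h, 24 h and 48 h, all under the pooled median. The gene passed the filter through p53-null arrays only.

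Other members passed 2-fold at 1 time. In p53-Dnmt1-null cells 7 members were at least 2-fold higher at 24 h against 6.02% of features, Oasl1 in addition to the 6, and 8 at 48 h against 2.94%, with Irf7 and Oasl2 added. Irf7 read 68.1, 70.9 and 82.7 in p53-null cells, against 62.2, 132.6 and 150.2 in p53-Dnmt1-null cells. It started level in the genotypes and was higher with TSA in p53-Dnmt1-null cells, by 0.97 at 24 h, just under 2-fold, and 1.13 at 48 h. In p53-null cells 0 members were at least 2-fold higher at 24 h against 3.38% of features, and Ifit1 and Igtp, 2 members, were at 48 h against 4.75%. Ifit1 was higher by 0.60 and 1.80 in p53-null cells, but in p53-Dnmt1-null cells its differences were -0.31 and 0.39. Members that hardly differed from untreated in either genotype included Irf1 and Ifi47, whose differences lay between -0.30 and 0.15 at both times in both genotypes. With the offset raised to the pooled median, 45.6, the members past the size rule in p53-Dnmt1-null cells were 3 in place of 6, without Igtp, Ifit2 and Oas1a. The share of all features past the rule at that offset was not computed.

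**Figure D3:**
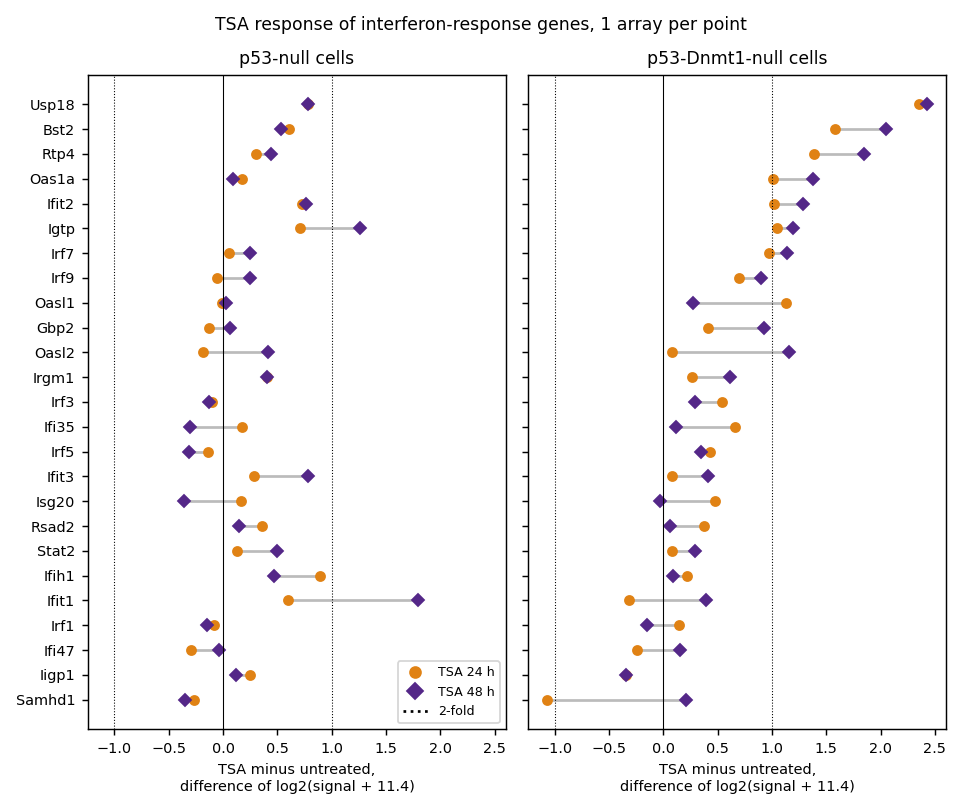
TSA response of each measured member in p53-null (left) and p53-Dnmt1-null cells (right), as the difference of log2(signal + 11.4) from the untreated array of the genotype; circles are 24 h, diamonds 48 h, 1 array each, and dotted lines mark 2-fold. Both symbols lie beyond the 2-fold line for 6 members in p53-Dnmt1-null cells, led by Usp18 at 2.35 and 2.43, and for 0 members in p53-null cells.

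The array 2 weeks after TSA removal carried low signals of most interferon-response genes, under the TSA arrays and for several under the untreated array. Against untreated p53-Dnmt1-null cells, 7 of the 25 members were at least 2-fold lower, where 9.68% of features were, and 1 was at least 2-fold higher, where 4.66% were. Against both TSA arrays, 15 members were at least 2-fold lower, where 10.1% of features were. For 18 members it was the lowest of the 7 arrays, where this held for 32% of features. These comparisons rest on 1 array and have no test, and counts against both TSA arrays and over 7 arrays were added after the values were seen. The array had the lowest median signal of the 7. The median difference from untreated was -0.65 for the members, -0.13 for all features and -0.16 for the 6443 features in the members' range of mean signal, of which 10.9% were at least 2-fold lower.

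Of the antiviral effectors, Ifit1 read 3.8 after removal, against 46.6 untreated, a difference of -1.93. It was the lowest Ifit1 signal of the series. Ifit3 read 5.3, also the lowest of its 7 values, and differed by -0.95. Ifit2, at 15.6 after removal, was the 1 member above 2-fold higher (1.11), but the untreated signal of 1.1 was the low one and its TSA arrays read 13.9 and 19.0.

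Among the sensors and the oligoadenylate synthetase family, Oasl1 read 22.6 after removal, with a difference from untreated of -1.33, below its p53-null signals too. Ifih1 read 44.6, 92.8 and 66.2 in p53-null cells, 50.8, 60.8 and 54.8 in p53-Dnmt1-null cells and 19.2 after removal. The earlier 6 arrays all lay more than 2-fold above that last signal as read, and the difference from untreated was -1.02. Oas1a read 48.0 after removal against 74.2 untreated, a difference of -0.53, and its difference from the mean of the TSA arrays was -1.72.

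Irf7 read 17.9 after removal, a difference from untreated of -1.33, and was far below every earlier array. Iigp1, a GTPase of pathogen vacuoles, read 38.4, 47.9 and 42.6 in p53-null cells, 35.8, 25.8 and 25.7 in p53-Dnmt1-null cells and 4.8 after removal, a difference of -1.54. Its second probe set had no signal above 13.6 and is not read for direction. Ifi35 read 66.7 after removal and Rtp4 23.8, differences of -1.17 and -1.04, each the lowest of 7.

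Usp18 (16.0 after removal) and Bst2 (105.5) were close to their untreated p53-Dnmt1-null signals, with differences of -0.26 and -0.24, so the levels seen with TSA were not present at this time. The members closest to their untreated levels also included Isg20 (-0.18). Some members called higher between genotypes stayed above every p53-null array after removal, by the probe set that stood for the gene. They were Irf5, Isg20, Ifi47, Rsad2 and Irf1. The margins of Rsad2, 33.0 against a highest p53-null signal of 29.7, and of Irf1, 224.1 against 222.1, were narrow. Other probe sets did not repeat this for Irf5 and Rsad2. The second Irf5 probe set read 32.6 after removal, against 35.5 to 52.0 in p53-null cells. For Rsad2 the others read 8.6 against 14.5 to 19.1, and 7.5 against 0.6 to 11.0. With the offset at the pooled median, 0 members were at least 2-fold lower or higher than untreated and 8 were at least 2-fold below both TSA arrays. The shares of all features at that offset were not computed, so these counts have no background beside them.

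**Figure D4:**
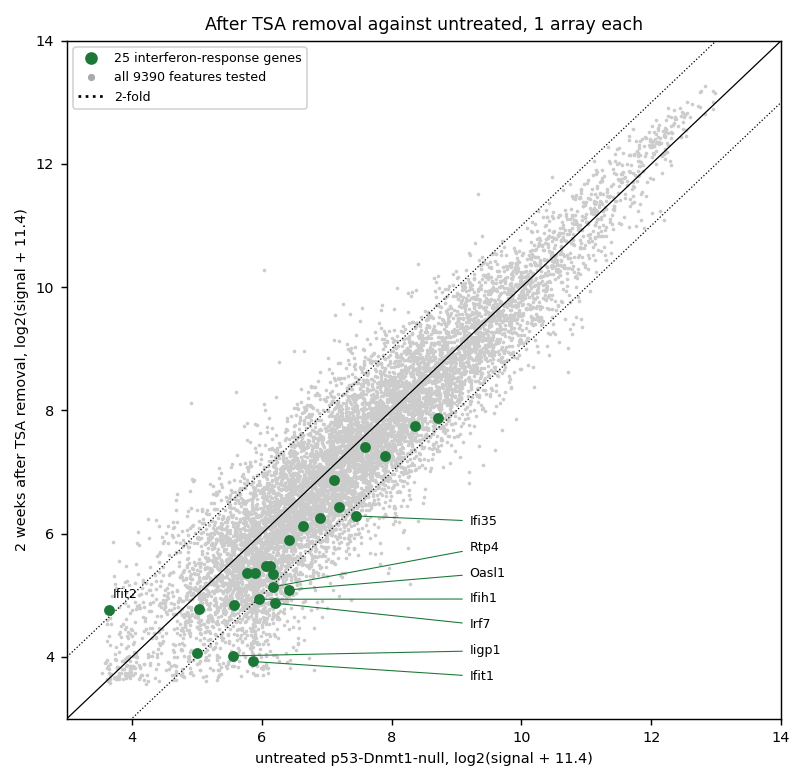
Level 2 weeks after TSA removal (vertical axis) against untreated p53-Dnmt1-null cells (horizontal axis), both log2(signal + 11.4), 1 array each; green points are the 25 measured members, grey points all 9390 features, and dotted lines mark 2-fold. The 7 members named to the right lie beyond 2-fold below the diagonal and Ifit2 above it.

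The other genes of the pathway were taken from lists of interferons, receptors and kinases, sensors, negative regulators and further interferon-induced genes. Of 14 listed interferons 10 had a probe set and 1, Ifnz, passed the filter without passing the genotype test. Ifnb1, the interferon that fibroblasts make first, read 18.9, 17.4 and 16.9 in p53-null cells at 0 h, 24 h and 48 h, 25.8, 14.8 and 10.9 in p53-Dnmt1-null cells and 9.4 after removal, under the pooled median throughout. Interferon protein was not measured.

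Of the 9 measured genes of receptors and Janus kinase signalling, 0 passed as higher between genotypes and 2 as lower, where 19.4% of all features passed in each direction. Jak1, a kinase of both receptor types, differed by -0.99 ± 0.16 (limma adjusted p = 0.00219) and Stat3 by -0.44 ± 0.15 (limma adjusted p = 0.0471). Of 9 measured sensing genes 3 passed as higher and 0 as lower, against the same 19.4% each way. Sting1, the adaptor of cytosolic DNA sensing, read 105.1 to 166.8 in p53-null cells and 307.7 to 551.5 in p53-Dnmt1-null cells, without overlap, and differed by 1.55 ± 0.17 (limma adjusted p = 0.000248). The others were Rela, a subunit of NF-kappaB (0.63 ± 0.15), and Trim25, a ubiquitin ligase of RNA sensing (0.53 ± 0.18).

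Of 9 measured negative regulators 3 passed as higher and 0 as lower, again beside 19.4% of features in each direction. Socs3, a feedback inhibitor of Janus kinases, differed by 1.01 ± 0.21 (limma adjusted p = 0.00618), and the phosphatase genes Ptpn6 and Ptpn2 by 1.02 ± 0.31 and 0.74 ± 0.17. Of 43 measured further interferon-induced genes 17 passed as higher, against 19.4% of features, and 7 as lower, against 19.4%, so the lower calls were near the general rate. Those with the largest differences were Cxcl10, a chemokine that attracts T cells (2.64 ± 0.22), Psmb8, an immunoproteasome subunit (2.37 ± 0.30), Lgals9, a galectin (1.94 ± 0.20), Ifi30, a lysosomal thiol reductase (1.88 ± 0.28), and H2-K1, a class I antigen-presenting molecule (1.78 ± 0.24). Cxcl10 read 13.3 to 26.2 in p53-null cells and 150.0 to 221.7 in p53-Dnmt1-null cells, and 107.6 after removal. Its arrays did not overlap between genotypes. Of the genes called higher in this list, Cxcl10, Psmb8, Psmb9, Casp4, Ccl5 and Irgm2 passed the filter through p53-Dnmt1-null arrays only. These genes had to differ to be measured.

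After removal, 10 of these 43 genes were at least 2-fold lower than untreated, against 9.68% of features, and 0 higher, against 4.66%. For 22 of them the lowest signal of the 7 arrays was there, against 32% of features. Tap1, the peptide transporter of class I presentation, read 56.7 untreated and 2.0 after removal, and Ifi27l2a 65.2 and 3.8; both were picked after their values were seen. With TSA, 2 of the 43 in p53-Dnmt1-null cells were at least 2-fold higher at both times, H2-D1 and Uba7, against 1.87% of features, and 1, Ifi27l2a, in p53-null cells, against 1.54%. Of 8 measured housekeeping genes 0 were 2-fold lower after removal, with a median difference of 0.34.

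The 7 members under the filter had signals too low to compare. Irf2, a repressor of the response, read 13.5 to 41.6, Irf8, a myeloid and lymphoid factor, at most 23.6 on either probe set, and the dynamin-like GTPases Mx1 and Mx2 at most 10.8 and 22.4. Ifi204, a DNA sensor, read at most 5.2, Gbp3 at most 22.5, and Zbp1, a sensor of left-handed nucleic acid, at most 19.5 on either probe set. Isg15, Ifi203 and Tgtp1 were present only in probe sets annotated to several genes and are not named from them, and Oas1g, Ifi27, Ifi44, Ddx58 and Xaf1 are not analysed here.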

How the data were processed

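The 7 arrays gave 1 deposited value per probe set, a linear signal intensity that the authors computed with MAS5, per the submitters' processing notes. MAS5 reduces the probes of a set to 1 background-corrected value, and which version was run is not given in the sources used. The deposited intensities had a 2% trimmed mean of 150.05 to 150.06 on every array and were used unscaled. Detection calls were not used here.

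Probe sets were named through the array's annotation and current RefSeq symbols: 20393 had 1 symbol, 691 several and 1606 were not listed. Probe sets with several symbols named no gene. Where a gene had several probe sets, that of highest mean log2 value stood for it, and the 64 controls were dropped. Signals were analysed as log2(signal + 11.4), after a filter of 45.6 on at least 1 array, with limma 3.58.1 in R 4.3.3, an intensity trend and Benjamini-Hochberg adjustment over 9390 features. Residual and prior degrees of freedom were 2 and 6.36 for the genotype test and 2 and 5.75 for the TSA test. The genotype residual holds departures from additivity, and the TSA residual holds the change between 24 h and 48 h. No array is a replicate, so p-values reflect only how these lone arrays scatter, which may be technical, and their number limits the precision. The scripts were tested on simulated data.

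Values on all arrays are given for members called at 2-fold or more between genotypes, past the TSA size rule, or 2-fold apart after removal. Genes outside the members come from the lists, at most 5 per list by size of genotype difference. Some were named on other grounds: Ifnb1 and Oas1b for what they encode, Tap1 and Ifi27l2a for values after removal, and H2-D1, Uba7 and Ifi27l2a for values with TSA. Psmb9, Casp4, Ccl5 and Irgm2 were named for how they passed the filter. Dnmt1 and the cell type markers were named apart from this rule. The members and the lists were chosen with earlier results of these data known. Promoters are those of RefSeq, build GRCm38.p6. The alternatives tried were other offsets, filters and probe sets, quantile normalization, no intensity trend, and each time left out.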

Additional observations from a re-analysis of the deposited data

Results flagged for a closer look

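For 3 members, each read by the probe set that stood for the gene, TSA arrays lay on opposite sides of untreated in the genotypes. Every TSA array lay on one side in p53-null cells and on the other in p53-Dnmt1-null cells. The limma adjusted p of the difference between genotypes was 0.994 for each. For Irf3 that difference, p53-Dnmt1-null minus p53-null, was 0.53 ± 0.42 (SE) on the log2 scale. For Irf5 it was 0.62 ± 0.42. For Iigp1 it was -0.53 ± 0.54, the p53-null arrays being above untreated and the p53-Dnmt1-null arrays below. The unadjusted p-values (limma) were 0.241, 0.183 and 0.354 in that order, so none passed even before adjustment. No other probe set of Irf3 or Irf5 repeated the pattern. A second Irf3 probe set went from 87.2 untreated to 97.6 and 89.7 with TSA (p53-null), and from 80.5 to 162.3 and 106.7 (p53-Dnmt1-null). Another had the sides exchanged, going from 38 up to 41.6 and 42.2, and from 50.1 down to 44.7 and 40.7. On the second Irf5 probe set, p53-null TSA arrays lay on both sides of untreated. That of Iigp1 was too dim to read.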

How the results depend on the processing

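Over the alternatives, genotype differences of members with a call kept it 137 times and lost it 19 times, with 0 changes of sign. Members without a call gained one 3 times (Irf7 and Rtp4) and changed sign 7 times (Bst2, Igtp, Irf3, Irgm1 and Samhd1), so no direction is read from those 5. With the offset at the pooled median, the members past the TSA size rule in p53-Dnmt1-null cells were 3, those 2-fold higher and lower than untreated after removal 0 and 0, and those 2-fold below both TSA arrays 8. For these counts the shares of all features at that offset were not computed. Without a filter 3 members were called lower between genotypes, where 10.6% of features were, Gbp2, Irf9, Oasl2, Stat2 and Usp18 losing their calls. With the filter on the mean signal 0 were 2-fold higher after removal. With the lowest probe set of each gene, 1 member, Samhd1, was 2-fold higher with TSA in p53-null cells, Irf5 lost its genotype call, and Usp18 passed the limma test of TSA in p53-Dnmt1-null cells (adjusted p = 0.04997). In p53-Dnmt1-null cells 6 members were again past the TSA size rule, but Stat2 was among them and Rtp4, under the filter, was not. That Stat2 probe set read 3.3, 18.2 and 27.3 at 0 h, 24 h and 48 h in those cells and 15.1 after removal. Without the intensity trend Usp18 lost its call. Without the 0 h pair the members called lower were 3, and without the 48 h pair those called higher were 6, with Gbp2, Ifi35, Oas1a and Oasl2 lost, while features called higher fell from 1826 to 1112. At 24 h alone 1 member, Samhd1, was 2-fold lower with TSA in p53-Dnmt1-null cells, and at 48 h alone 2 were 2-fold higher in p53-null cells. Ifit1, Ifit3, Irf1, Isg20, Ifi47, Oasl1 and Rsad2 kept their genotype call under each alternative in which they were measured. The single-time counts, those against both TSA arrays and those of the lowest of 7 arrays were chosen after seeing the data. No group has replicate numbers, so replicates could not be paired. The matched times entered the genotype model as a term, which pairs the genotypes at each time.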
